A study of Bos taurus with 6 samples.

Results

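The transcripts of 10 genes of sphingomyelin and ceramide metabolism were followed in bovine cumulus cells, the somatic cells around the oocyte, after culture with FID, a mixture that raises cyclic AMP. Transcripts of SMPD3, a neutral sphingomyelinase, were 6.38-fold higher in FID than in control cells. SGMS2, a sphingomyelin synthase, rose 4.03-fold, while SGMS1, the other sphingomyelin synthase of the set, fell 1.81-fold on its brightest probe. Both synthases passed the test close to its threshold, and not under every setting tried. The members SPTLC1, SPTLC2, SMPD1, SMPD2 and SPHK1 had mean log2 ratios between -0.23 and 0.090 and did not pass the test. ASAH1, at -1.12 on its brightest probe, and UGCG, at 1.11, did not pass either.

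The 10 members were SPTLC1, SPTLC2, SGMS1, SGMS2, SMPD1, SMPD2, SMPD3, ASAH1, SPHK1 and UGCG, out of 15229 genes named on the array. They were matched by gene symbol in the platform annotation, which gave 17 probes among 43794. The set was chosen from the rise of SMPD3 in an earlier reading of these same arrays, and the other members were added for their place in the pathway. The FID over control values of SMPD3 are therefore a description with no test. The tests of the other members come from the same contrast and lend no support to the choice of the set.

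Cells cultured with FID received 100 µM forskolin, which activates adenylyl cyclase, together with the phosphodiesterase inhibitors IBMX (500 µM) and dipyridamole (50 µM). Control cells received none of these. Both came from cumulus-oocyte complexes of Holstein cows, taken from ovaries at the slaughterhouse and matured in groups of complexes, so a replicate holds cells of several complexes. The culture protocol gives 22 to 24 h for both conditions, but 6 h appears in the control samples' names, so the time in culture is not settled. Each of 3 replicates, which carry the numbers 1, 2 and 4, had its pair of RNAs hybridised on 2 arrays of opposite dye orientation, 6 arrays in all. The comparison asks how the transcripts of cumulus cells differ between FID, which raises cyclic AMP, and control. Should the times in culture differ, FID and time cannot be told apart in any result below.

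Sphingomyelin is an abundant lipid of the outer leaflet of the plasma membrane, and ceramide is the lipid at the centre of its metabolism. Serine palmitoyltransferase starts ceramide synthesis, sphingomyelin synthases turn ceramide into sphingomyelin, and sphingomyelinases release it again. Ceramidases and sphingosine kinases lead from ceramide to sphingosine and on to sphingosine 1-phosphate, while glucosylceramide synthase takes ceramide into glycolipids. In the ovary, ceramide is known for its part in cell death and sphingosine 1-phosphate as a survival signal.

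Granulosa and cumulus markers were present in both conditions. Of 12 listed, 11 were above background and tested, and 0 passed limma's test. In a block fit that takes all 6 arrays singly, 3 were higher and 3 lower, where 20.7% of all genes tested passed. Their summed normalized intensity was 100440 to 115660 in FID and 105620 to 121500 in control, but single markers moved both ways. A log2 ratio beyond 1 in size was found for 7 of the 11 (63.6%), against 9.62% of all genes tested. Negative among these were KRT8 (-2.36), KRT18 (-1.76), GJA1 (-1.04) and HSD3B1 (-1.01). Positive were AMH (1.71), NR5A2 (1.22) and CYP11A1 (1.01). The oocyte list was higher in FID mainly in replicates 1 and 2. Each of its 12 markers had a positive log2 ratio, while 0 passed limma's test, against 3 at an unadjusted p under 0.05 and 2 in the block fit. Their summed intensity was 14008, 33602 and 1689 in FID replicates 1, 2 and 4, against 5141, 2866 and 1411 in control. Markers of theca and stroma summed to 10017 to 14831 in FID and 23467 to 30770 in control. In limma's test 2 of 7 were lower and 0 higher, where 1.29% of all genes tested were lower. The block fit had 4 lower and 0 higher. CYP17A1, the defining steroid enzyme of theca, was above background on 3 arrays in FID and 4 in control. In the blood and immune list 6 of 9 markers were tested, with a sum of 1148 to 3433 in FID and 1026 to 2653 in control. All 6 had positive ratios, 0 passed limma's test, and 2 passed in the block fit, LYZ and HBA. LYZ was above background on 4 arrays in FID and 0 in control, so it entered the test through FID alone. In the endothelium list 4 of 5 were tested, with a sum of 490 to 709 in FID and 481 to 670 in control, and 0 passed. The part of these other cells in the members' values was not tested. In such bulk RNA, fewer cells of a type and less RNA per cell cannot be told apart.

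A gene was represented by its brightest tested probe, and ratios are given as log2 of FID over control. Over all genes tested, 291 of 12381 passed limma's test at an adjusted p under 0.05, or 2.35%, with 1.06% higher and 1.29% lower in FID. Over all probes it was 555 of 32192, or 1.72%, of which 246 were higher and 309 lower. With median centring in place of loess it was 201 higher and 454 lower. All these calls lie close to the threshold, since the smallest adjusted p was 0.0476, and 7563 probes (23.5%) had an unadjusted p under 0.05. Of the 9 members other than SMPD3, 1 passed as higher (SGMS2), 1 as lower (SGMS1) and 7 did not pass. Nothing is read from this count, which comes from the contrast that chose the set. The median ratio of these 9 was -0.068, against 0.0076 for all genes tested.

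**Figure D1:**
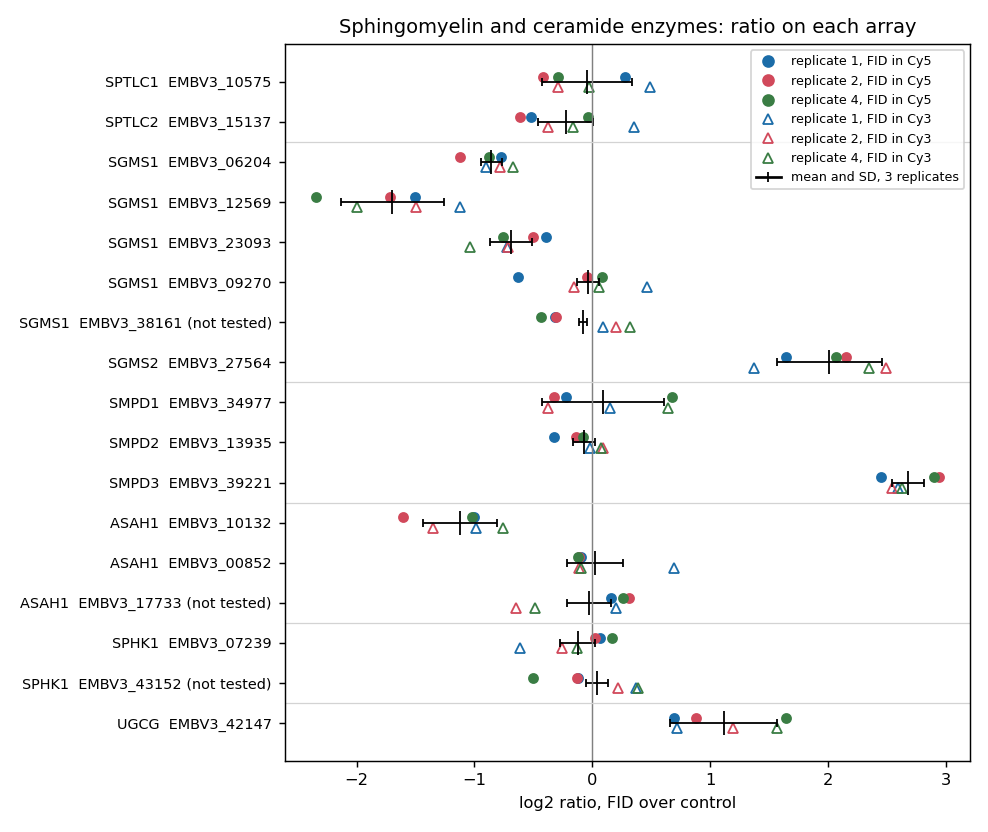
The x axis gives the log2 ratio of FID over control on each of the 6 arrays, for all 17 probes of the 10 members in reaction order (filled circles, FID in Cy5; open triangles, FID in Cy3; colours, replicates). Black bars are the mean and SD of the 3 replicates. The 6 points of SMPD3 lie between 2.44 and 2.94 and those of SGMS2 between 1.37 and 2.49, while the probes of SGMS1 and of ASAH1 are spread between values near 0 and clearly negative ones.

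Ceramide synthesis begins with SPTLC1 and SPTLC2, the subunits of serine palmitoyltransferase. SPTLC1 had normalized log2 intensities of 9.71, 9.16 and 10.19 in FID replicates 1, 2 and 4, against 9.33, 9.52 and 10.34 in control. The groups overlapped, with FID higher in replicate 1 and lower in replicates 2 and 4. Its log2 ratio was -0.044 ± 0.18 (SE, n = 3 replicates, 95% interval -0.55 to 0.46, limma adjusted p = 0.930). Without replicate 2 the ratio was 0.11, and without replicate 4 it was 0.014.

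SPTLC2, the catalytic subunit, had 8.41, 8.64 and 8.40 in FID, against 8.49, 9.14 and 8.50 in control. FID was lower in all 3 replicates, though the groups overlapped. The log2 ratio was -0.23 ± 0.13 (95% interval -0.59 to 0.13, limma adjusted p = 0.392). An increase of SPTLC2 beyond 0.13 on the log2 scale therefore lies outside the interval, while a ratio down to -0.59 lies within it. Without replicate 2 the ratio of SPTLC2 was -0.092.

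The sphingomyelin synthases went in opposite directions. SGMS2, the synthase found mainly at the plasma membrane, had normalized log2 intensities of 10.86, 12.23 and 11.59 in FID, against 9.36, 9.91 and 9.38 in control. Every FID value lay above every control value, and the ratio was positive on 6 of 6 arrays. On the log2 scale it rose by 2.01 ± 0.20 (SE, n = 3 replicates, limma adjusted p = 0.0492), with 1.51, 2.32 and 2.21 in replicates 1, 2 and 4. The smallest of these came from replicate 1, in which SGMS2 was also lowest in FID. The oocyte markers had median ratios of 1.17, 2.91 and 0.14 in the same replicates, and their part in the SGMS2 values was not tested.

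SGMS1, the synthase of the Golgi apparatus, had 5 probes, of which 4 were tested. On the brightest, EMBV3_06204, the normalized log2 intensity was 10.96, 10.47 and 10.80 in FID, against 11.79, 11.42 and 11.58 in control. Every FID value lay below every control value. There SGMS1 fell by 0.86 ± 0.090 on the log2 scale (limma adjusted p = 0.0492), and the ratios of -0.84, -0.95 and -0.78 in replicates 1, 2 and 4 were close to each other.

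The other probes of SGMS1 differed in size. Probe EMBV3_12569 had 10.13, 9.62 and 10.48 in FID, against 11.44, 11.22 and 12.65 in control, a log2 ratio of -1.70 ± 0.20 (limma adjusted p = 0.0537). Its ratio was negative on 6 of 6 arrays, as was that of EMBV3_23093, which had -0.69 ± 0.11 (limma adjusted p = 0.0713) and was above background on 2 arrays in FID and 6 in control. Probe EMBV3_09270 had -0.038 ± 0.090 (limma adjusted p = 0.872) and was above background on 3 arrays in FID and 4 in control. The fifth, EMBV3_38161, had a mean ratio of -0.076, was above background on 3 arrays in each condition and was not tested. So the brightest pair of SGMS1 probes, above background on 6 arrays in each condition, was negative on every array, at -0.86 and -1.70. EMBV3_23093 entered the test through control alone, where it was brighter, so its sign adds no support. The remaining probes had array ratios of both signs. The sources used here do not say which transcript forms of SGMS1 the probes read.

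The calls of both synthases were lost in some settings. For SGMS2 the adjusted p in limma was 0.0708 with no background correction, 0.0560 with marked spots kept, 0.0546 with the authors' deposited ratios and 0.116 to 0.249 with any 1 replicate left out. For SGMS1 these values were 0.0620, 0.0560, 0.0525 and 0.116 to 0.250, and 0.0531 for the mean of its tested probes. The ratio itself ranged from 1.77 to 2.26 for SGMS2 and from -1.10 to -0.79 for SGMS1 over these and the other settings. A difference between both synthases as such was not tested.

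**Figure D2:**
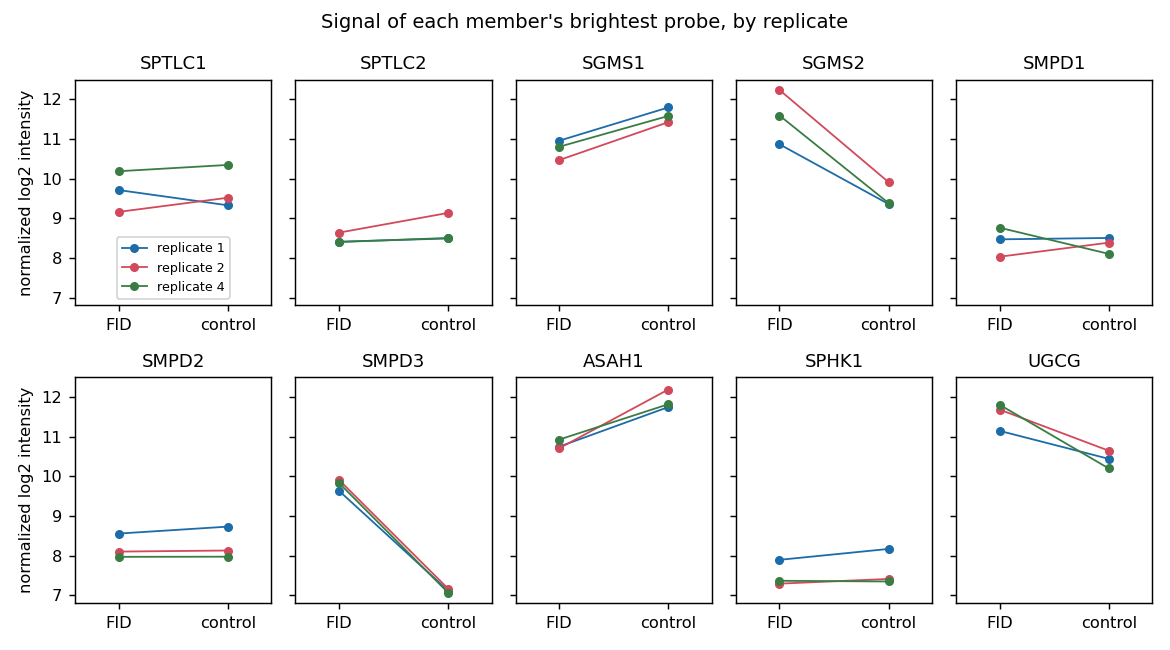
The y axis gives the normalized log2 intensity of each member's brightest probe in FID (left) and control (right), with 1 line per replicate joining the 2 dye-swap means. Levels of different probes are not comparable. Lines of SMPD3, SGMS2 and UGCG run downwards to control in all 3 replicates, and those of SGMS1 and ASAH1 upwards. Lines of SPTLC1, SMPD1 and SPHK1 differ in direction between replicates.

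Sphingomyelinases differ by the pH and place at which they act. SMPD3, the neutral sphingomyelinase of the plasma membrane and Golgi apparatus, was read by a single probe, EMBV3_39221. Its raw intensity on the arrays with FID in Cy5 was 767, 899 and 909 in FID replicates 1, 2 and 4, against 238, 201 and 180 in control. On the arrays with FID in Cy3 it was 961, 1164 and 1075 in FID, against 185, 200 and 149 in control. The FID signal was above the control signal on each array, whichever dye it carried. The control signal was close to background, since 95% of the negative control spots lay below 118 to 195 in the control channel. It was above that limit on 6 of 6 arrays.

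After normalization SMPD3 had log2 intensities of 9.64, 9.91 and 9.83 in FID, against 7.12, 7.17 and 7.07 in control. The replicates lay close together within each condition, and the conditions did not overlap. The log2 ratio was 2.52, 2.74 and 2.76 in replicates 1, 2 and 4, with a mean of 2.67 ± 0.14 (SD, n = 3 replicates). SMPD3 held place 15 from the top among 12381 genes by ratio, and SGMS2 held place 61. The oocyte marker medians in the same replicates were 1.17, 2.91 and 0.14, and their part in the SMPD3 values was not tested. The SMPD3 ratio was 2.27 with no background correction, 2.44 with marked spots kept in the background fit and 2.48 in the authors' deposited ratios.

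SMPD1, the acid sphingomyelinase of the lysosome, had 8.47, 8.03 and 8.76 in FID, against 8.51, 8.39 and 8.10 in control. The groups overlapped, and the ratios of -0.035, -0.35 and 0.66 in replicates 1, 2 and 4 differed in sign. Its mean log2 ratio was 0.090 ± 0.23 (95% interval -0.56 to 0.74, limma adjusted p = 0.883), and it changed sign without replicate 4 (-0.19) and with median centring (-0.015).

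SMPD2, a neutral sphingomyelinase of intracellular membranes, had 8.56, 8.10 and 7.97 in FID, against 8.73, 8.13 and 7.98 in control. The paired values were nearly equal in replicates 2 and 4. The log2 ratio was -0.068 ± 0.090 (95% interval -0.32 to 0.19, limma adjusted p = 0.744), which leaves out a change of SMPD2 of the size measured for SMPD3. It was 0.046 on the arrays with FID in Cy3 alone.

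Ceramide is broken down by ASAH1, the acid ceramidase of the lysosome, which had 3 probes. On the brightest, EMBV3_10132, the normalized log2 intensity was 10.75, 10.71 and 10.93 in FID, against 11.74, 12.19 and 11.82 in control. The FID values lay below all control values, and the ratio was negative on 6 of 6 arrays. The log2 ratio of ASAH1 was -1.12 ± 0.15 (limma adjusted p = 0.0597) and did not pass. Probe EMBV3_00852 had 0.024 ± 0.13 (limma adjusted p = 0.949) and was above background on 3 arrays in FID and 4 in control. The remaining probe, EMBV3_17733, was above background on 0 arrays in FID and 2 in control and was not tested. With the mean of both tested probes the ratio of ASAH1 was -0.55, and with median centring it passed at -1.36 (adjusted p = 0.0479).

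SPHK1, which makes sphingosine 1-phosphate, had 7.90, 7.30 and 7.37 in FID, against 8.17, 7.41 and 7.35 in control on its tested probe. The groups overlapped, and its dye effect of 0.21 was larger in size than its log2 ratio of -0.13 ± 0.10 (95% interval -0.41 to 0.16, limma adjusted p = 0.562). The ratio was 0.082 on the arrays with FID in Cy5 alone. A second SPHK1 probe was above background on 3 arrays in each condition and was not tested.

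UGCG, the glucosylceramide synthase that starts glycolipid formation, had 11.14, 11.68 and 11.80 in FID, against 10.44, 10.64 and 10.20 in control. Each FID value was above each control value, and the ratio was positive on 6 of 6 arrays. The log2 ratio of UGCG was 1.11 ± 0.21 (limma adjusted p = 0.0834), with 0.70, 1.03 and 1.60 in replicates 1, 2 and 4. It did not pass, and replicate 1 had the smallest ratio of UGCG as it had of SGMS2 and SMPD3.

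Among the 9 members other than SMPD3, the levels of the 3 replicates did not overlap between FID and control for 4, namely SGMS1, SGMS2, ASAH1 and UGCG, against 28.4% of all genes tested. A log2 ratio beyond 1 in size was found for 3 of these 9 (33.3%), against 9.62% of all genes tested. In the block fit, which adds a term for the dye and treats replicates as random blocks, 4 of these 9 passed, against 20.7% of all genes. The block fit counts both arrays of a replicate and added ASAH1 (adjusted p = 0.00276) and UGCG (adjusted p = 0.00620) to SGMS1 and SGMS2. These shares come from the contrast that chose the set, and nothing is read from them. Dye effects in that fit were -0.16 to 0.21 over the 14 tested probes, with 0.21 for SPHK1 and 0.088 for SMPD3.

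**Figure D3:**
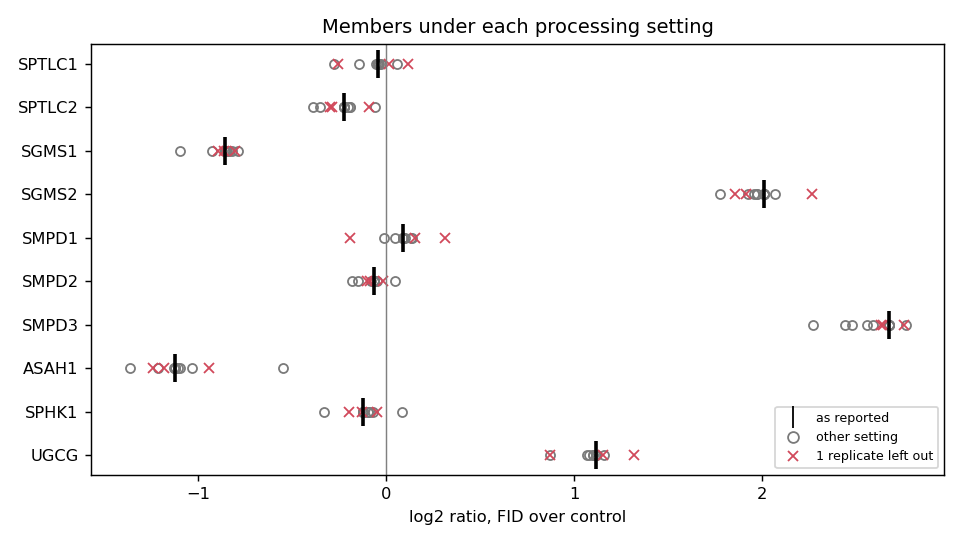
The x axis gives the log2 ratio of FID over control of each member as reported (black bar), under other settings (open circles) and with 1 replicate left out (crosses). SMPD3, SGMS2 and UGCG stay above 0, SGMS1, ASAH1 and SPTLC2 stay below it, and SPTLC1, SMPD1, SMPD2 and SPHK1 lie on both sides.

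Other genes of sphingolipid metabolism were taken from a list of 66 symbols, older and newer names of a gene included. Of these, 44 had a probe and 39 were tested. In the FID over control test 0 rose, 2 fell and 37 did not pass, where 2.35% of all genes tested passed. The median log2 ratio was -0.027, against 0.0076 over all genes. In the block fit 1 was higher and 9 were lower, where 20.7% of all genes passed. Levels did not overlap between FID and control for 11 of the 39, against the 28.4% of all genes given above. By role, 0 of 3 ceramidases, 0 of 7 lysosomal hydrolases and activators and 0 of 5 glycosphingolipid transferases passed. At a share of 2.35% over all genes, groups this small would mostly hold 0, so nothing is read from these counts. The lysosomal group, which degrades glycolipids, had ratios between -0.24 and 0.42. The genes DEGS2, SMPDL3B, S1PR4, GAL3ST1 and GLTP were above background on at most 3 arrays in either condition and were not tested.

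NSMAF, which encodes an adaptor that links a tumour necrosis factor receptor to neutral sphingomyelinase, was the first of the 2 that fell. It had normalized log2 intensities of 11.83, 12.03 and 11.32 in FID, against 12.90, 12.96 and 12.29 in control. Each FID value was below each control value. NSMAF fell by 0.99 ± 0.088 on the log2 scale (limma adjusted p = 0.0476).

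ORMDL3, an endoplasmic reticulum protein that restrains serine palmitoyltransferase, was the other. It had 9.44, 9.89 and 9.45 in FID, against 10.97, 11.08 and 10.53 in control, and the conditions did not overlap. It fell by 1.27 ± 0.13 on the log2 scale (limma adjusted p = 0.0492). Its relatives ORMDL1 and ORMDL2, of the same function, had log2 ratios of -0.84 ± 0.23 (adjusted p = 0.140) and -0.63 ± 0.18 (adjusted p = 0.154) in limma. All 3 ORMDL genes had negative ratios on their brightest probe under all 13 alternative settings. The second probe of ORMDL2 had -0.095. The calls of NSMAF and ORMDL3 were lost with any 1 replicate left out, with no background correction, with marked spots kept and with the authors' deposited ratios.

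The largest negative ratio of the list was that of SGPP1, a phosphatase that returns sphingosine 1-phosphate to sphingosine. SGPP1 had normalized log2 intensities of 8.85, 8.86 and 9.18 in FID, against 10.58, 10.63 and 12.02 in control. The conditions were clearly apart, but replicate 4 differed from the others in control. The log2 ratio of SGPP1 was -2.11 ± 0.28 (limma adjusted p = 0.0571). Another of its probes, EMBV3_43295, was above background on 0 arrays in FID and 4 in control and was at least 1.99-fold brighter in control (limma adjusted p = 0.181).

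PPAP2B, a lipid phosphate phosphatase of the cell surface, had 8.62, 8.34 and 8.10 in FID, against 10.17, 10.45 and 8.94 in control. Its log2 ratio was -1.50 ± 0.28 (limma adjusted p = 0.0840). ACER3, an alkaline ceramidase, had -1.15 ± 0.32 (limma adjusted p = 0.144), with -0.46, -1.08 and -1.93 in replicates 1, 2 and 4. Its 3 tested probes had the same sign, and the dimmest was at least 1.53-fold brighter in control (limma adjusted p = 0.215). Neither PPAP2B nor ACER3 passed.

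Positive ratios in the list were smaller. B4GALT5, which makes lactosylceramide from the product of UGCG, had the highest, with log2 intensities of 8.01, 8.07 and 7.76 in FID, against 7.48, 7.35 and 7.27 in control. Its log2 ratio was 0.58 ± 0.095 (limma adjusted p = 0.0727). With FID in Cy5 the ratio of B4GALT5 was 0.91, 1.06 and 0.87 in replicates 1, 2 and 4. With FID in Cy3 it was only 0.15, 0.37 and 0.12, and the dye effect was 0.37. SAMD8, a relative of the sphingomyelin synthases that makes ceramide phosphoethanolamine, had 0.44 ± 0.20 (adjusted p = 0.298 in limma), and its other 2 probes had negative ratios. The lysosomal enzymes GLB1, a galactosidase, and NEU1, a sialidase, had 0.42 ± 0.35 and 0.37 ± 0.28, with ratios of 1.37 and 1.11 in replicate 4. Neither passed, with adjusted p of 0.577 and 0.530 in limma. The dye effect of NEU1, 0.43, was larger than its ratio. With FID in Cy3 its ratio was -0.60 and -0.49 in replicates 1 and 2.

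Between synthesis and sphingomyelin lie DEGS1, the desaturase that completes ceramide, and COL4A3BP, the ceramide transfer protein. DEGS1 had a log2 ratio of -0.74 ± 0.18 (limma adjusted p = 0.119), and COL4A3BP had 0.32 ± 0.14 (limma adjusted p = 0.306). SMPD4, a further neutral sphingomyelinase, had 0.24 ± 0.31 (limma adjusted p = 0.732), with 1.05 in replicate 4 and negative ratios in replicates 1 and 2. Of the 4 tested receptors of sphingosine 1-phosphate, 0 passed, where 2.35% of all genes did. Among these receptors S1PR3 had the lowest ratio, -0.99 ± 0.22 (limma adjusted p = 0.106), and was above background on 2 arrays in FID and 6 in control. S1PR3 thus entered the test through control alone, and nothing is read from its sign.

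**Figure D4:**
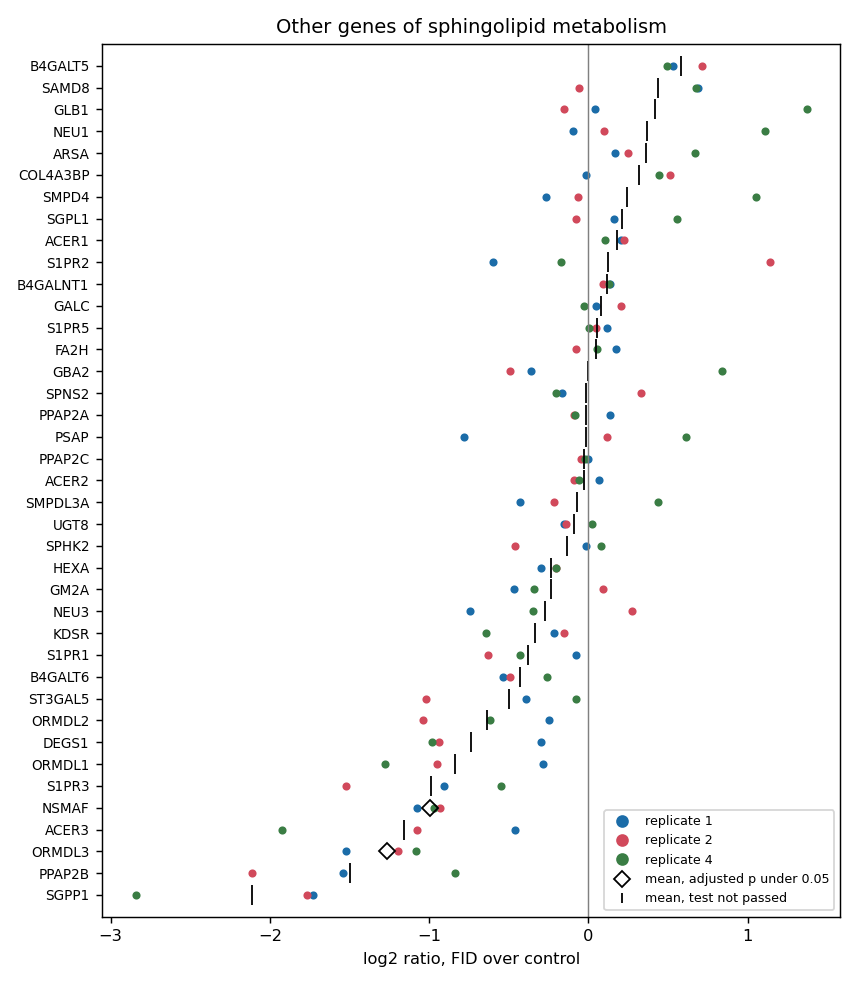
The x axis gives the log2 ratio of FID over control for the 39 tested genes of the pathway list, with coloured points for the 3 replicates. Diamonds mark means that passed the test (NSMAF and ORMDL3), and vertical bars mark means that did not. Ratios run from -2.11 for SGPP1 to 0.58 for B4GALT5.

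The 5 genes whose 6 array ratios lay nearest to those of SMPD3, by root mean square difference, were BTG2, PCDH8, LOC100174924, ARHGEF3 and ITPKA. BTG2, an antiproliferative gene, differed from SMPD3 by 0.38 on the log2 scale, as did PCDH8, a protocadherin. LOC100174924 differed by 0.42, ARHGEF3 by 0.42, and ITPKA, a kinase of inositol trisphosphate, by 0.43. The median of this difference over all genes was 2.69. That is close to the SMPD3 ratio itself, because the median size of a ratio over all genes was only 0.23. It is therefore no yardstick for how alike these genes are. The mean log2 ratios of these 5 genes were 2.45 to 2.71, against 2.67 for SMPD3. They were picked by this likeness over 6 arrays of 3 replicates, so no test is given.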

How the data were processed

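Cumulus cells with and without FID were compared on 6 arrays. Per the labels' protocols, the RNA was amplified in T7 reactions and labelled chemically. The series' design calls the replicates biological, but the labels do not say whether they came from separate animals, so p-values measure only the spread between these samples. The deposited scanner files hold raw spot intensity and local background intensity at 532 nm (Cy3) and 635 nm (Cy5), per the file headers. The authors also deposited log2 ratios in 2 tables that were identical to each other, whose normalization is not given in the sources used here. Set against the scanner values they ran as Cy5 over Cy3, with slopes of 0.933 to 1.01 over 4352 bright probes, and their medians were -0.0185 to -0.00285; how they were centred stays unknown. They were used as an alternative. Scanner, software and genome build are not given in the sources used here, and no slide or scan label is used here.

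In limma 3.58.1 (R 4.3.3), mean spot intensities were corrected with normexp on the median local background (offset 50) and normalized by loess within arrays, with control spots at weight 0. Spots marked to be ignored (13 to 88 per array) were left out before the background fit. The sign of arrays with FID in Cy3 was turned, and both arrays of a replicate were averaged. Their ratios correlated at 0.552 to 0.807 within replicates and at 0.336 to 0.613 between them. Tested probes were those whose raw mean intensity was above 95% of the 153 negative control spots on 4 or more of the 6 arrays, in either condition. Ratios were tested against 0 with lmFit and eBayes and Benjamini-Hochberg adjustment over 32192 probes, with 2 residual and 1.85 prior degrees of freedom. Intensities are log2 values, and the 95% intervals come from the same fit. Depth does not apply, and the number of replicates limits the precision. The median raw intensity of an array was between 173 and 294 for FID and between 143 and 255 for control. Ratios of dim probes are compressed towards 0. A bound ("at least") was computed after loess and Aquantile for probes above background on 0 arrays of a condition. It concerns the mean, takes no account of the spread between replicates, and is given for SGPP1. The fits were also run on simulated data with known changes. Recovery was required there only at a spread well below that of these arrays, so it does not bear on calls near the threshold.

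The pairing of dye-swap arrays by replicate number comes from the labels. Named genes were all members, those of the pathway list that passed, its 4 largest and 4 smallest ratios, and the 5 nearest to SMPD3. DEGS1, COL4A3BP, SMPD4, S1PR3, ORMDL1 and ORMDL2 were named after their values were seen. Members and lists were chosen with earlier results of these data known. Alternatives changed the normalization, background correction, filter, dye orientation, replicates and probe choice.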

Additional observations from a re-analysis of the deposited data

How the results depend on the processing

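The count of 555 called probes fell to 0 with no background correction (7104 at an unadjusted p under 0.05), with marked spots kept in the background fit (7028) and with the authors' deposited ratios (7430), and to 0 to 0 without any 1 replicate (4864 to 6583), all in limma. Under these settings 0 of 10 members (SMPD3 counted here and below as the same threshold would place it, not as a test) and 0 of 39 pathway genes passed, and 0 to 0 without any 1 replicate. In the fit of 6 arrays with a dye term and the replicate block, 5186 probes, 5 members and 10 pathway genes passed. The 5 members include SMPD3, whose rise chose the set and which has no test. Of the 9 members other than SMPD3, 2 were higher and 2 lower in this fit, where 20.7% of all genes tested passed. Nothing is read from the member counts of any setting, since they come from the contrast that chose the set. With only the arrays with FID in Cy5, 1610 probes and 4 pathway genes passed, and with only those with FID in Cy3, 2324 probes, 5 members and 4 pathway genes. When a probe had to exceed background on 6 of 6 arrays in FID and in control, 972 of 18355 passed. The log2 ratio of SMPD3 was 2.27 with no background correction, 2.44 with marked spots kept, 2.48 with the authors' deposited ratios and 2.63 to 2.75 without any 1 replicate. Ratios near 0 changed sign: SPTLC1 was 0.058 with FID in Cy3 alone and -0.26 to 0.11 without any 1 replicate, SMPD1 was -0.015 with median centring and -0.19 to 0.31 without any 1 replicate, SMPD2 was 0.046 with FID in Cy3 alone, and SPHK1 was 0.082 with FID in Cy5 alone. The causes were not tested. SGMS2, SGMS1, ASAH1, UGCG and SPTLC2 kept their direction under all 14 alternatives run for each. The block for slide or scan was not run, since no such label is used here. Precision is limited by 3 replicates and, for SMPD3 in control and the dim probes of SGMS1, ASAH1 and SPHK1, by signal close to background.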
